A study of Mus musculus with 6 samples.

Results

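The RNA contacts of long terminal repeat (LTR) retrotransposons were described in MARIO libraries of mouse cells. MARIO crosslinks RNAs to the proteins that hold them, ligates RNAs on 1 protein through a biotinylated linker, and reads the product from both sides as RNA1 and RNA2. A read pair was a member where the deposited annotation gave the type LTR at RNA1 or RNA2. After read pairs with equal coordinates were collapsed within a library, 184807 of 5581375 distinct read pairs (3.31%) were members, with 210657 LTR ends and 444 repeat names. The E14 line of embryonic stem (ES) cells, strain 129/Ola, gave ES-1 and ES-2, crosslinked with ultraviolet light at 254 nm and first cut with RNase I, to about 1000 nt in ES-2 and to a longer range in ES-1. Ribosomal RNA was depleted by duplex-specific nuclease in ES-1 and by a GeneRead kit in ES-2. ES indirect used the same cell line, crosslinked with formaldehyde and EGS, sheared by sonication to about 1000 nt and depleted by duplex-specific nuclease. The MEF library came from C57Bl/6 embryonic fibroblasts, crosslinked with the same ultraviolet light, cut to about 300 nt by RNase I and depleted by GeneRead. ES indirect and MEF were 1 library each, so the spread between ES-1 and ES-2 is the only spread between assays, and no test between groups was made. ES merged below is ES-1 and ES-2 together. In MEF, cell type, strain, fragment length and library cannot be told apart.

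LTR retrotransposons are relics and active copies of retroviruses. An internal part, marked -int in repeat names, can code for the viral proteins, and the flanking LTRs hold the promoter and the end signal. In the mouse, IAP and ETn elements still move, and MERVL with its LTR MT2 marks the earliest embryo. VL30 and MuLV are retrovirus-like families, and ORR1, MT and other MaLR names are old, abundant and mostly without coding ability. Because copies of a young family are nearly alike, a short read from 1 copy can match many places of the genome.

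The sequences behind the most frequent LTR places show what the label covered. Overlapping LTR fragments on 1 strand formed 100418 loci, of which 85.4% held 1 read pair. Build NCBIM37 (mm9), which is from C57BL/6J and not 129/Ola, gives the coordinates. The commonest fragments of 5 of the 8 loci with most read pairs are shown with capitals for bases that lie in a 10-nt run of the linker or in a 16-nt run frequent in ribosomal RNA.
MurERV4-int, chr17:38315717-38315757: cCTAGTAGCCCATGCA
ORR1E, chr14:90519586-90519614: aAATGCGAGGActagg
RLTR22_Mur, chr13:62785962-62785983: TCGCATTGCATGcgaggac
MT2A, chr10:68578209-68578239: CAGCAGGACGGTGGCC
MERVL_2A-int, chr8:31464414-31464444: ttgtggaaaatgacagctc
The MurERV4-int locus led with 3249 read pairs (52 in ES-1, 47 for ES-2, 1201 in ES indirect and 1949 for MEF), and 100% of its fragments held a piece of the linker. For the ORR1E locus (1572 read pairs) that share was 99.1%, and for the RLTR22_Mur locus (1452 read pairs) it was 100%. The MT2A locus had 1148 read pairs, and 98.9% of its fragments held a ribosomal run. By these rules the MERVL_2A-int locus (1574 read pairs, median fragment 19 nt) held neither. Nor did RLTR14 on chromosome 1 (1254, median 21 nt) and LTRIS5 on chromosome 11 (1213, median 19 nt). Only 1.196% of the RLTR14 fragments matched their stated position with up to 15% mismatches, against 97.14% for MERVL_2A-int and 100% for LTRIS5. Ribosomal sequence without a frequent 16-nt run would not be marked, so its absence from these loci was not shown. Only the seventh of these 8 loci, MMVL30-int on chromosome 14, had long fragments (median 90 nt) that matched their position.

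For this reason most values below are given both over all LTR ends and over placed ends. An end was called placed where it was at least 25 nt long, matched its stated position with at most 5% mismatches, held no linker run, and held no ribosomal run unless it was labelled ribosomal. Placed ends made up 8607 of 41812 LTR ends in ES-1 (20.6%), 3253 of 49548 in ES-2 (6.57%), 67493 of 94651 in ES indirect (71.3%) and 402 of 24646 in MEF (1.63%). Over all non-ribosomal ends the shares were 63.3%, 27.6%, 71.8% and 9.03%. LTR ends were thus placed less often than other ends in the 3 libraries with ultraviolet crosslinking and about as often in ES indirect. In MEF, 62.2% of RNA1 ends and 37.5% of RNA2 ends named LTR held a linker piece, and the median RNA1 end was 18 nt. The MEF library stood apart in a second way: 64.1% of its placed exonic mRNA ends at RNA1 lay in sense with the gene, against 92.8% at RNA2 and 94.1% to 98.6% at either end of the ES libraries. Summed over lists of 12 genes, markers followed the cell type labels, but single genes did not all do so. Fn1 gave 556 of the 662 fibroblast marker ends of ES-1. Utf1 (6) and L1td1 (4) gave most of the 15 placed ES marker ends of MEF. Fibroblast markers had 12252 per 1000000 exonic mRNA ends in MEF and 1386 to 3500 in the ES libraries, or 66598 and 1451 to 4333 over placed ends. ES markers had 579 (389 to 861) in MEF and 2419 to 5166 in the ES libraries, and over placed ends, with 15 of them in MEF, 3074 (1864 to 5066) and 5531 to 6518, a smaller gap.

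With this filter the sequences at the leading places were of another kind. The stretches below, up to 120 nt long, carry capitals where at least 50% of the deepest base's number of fragments overlap.
MMVL30-int, chr14:51427134-51427253, minus strand: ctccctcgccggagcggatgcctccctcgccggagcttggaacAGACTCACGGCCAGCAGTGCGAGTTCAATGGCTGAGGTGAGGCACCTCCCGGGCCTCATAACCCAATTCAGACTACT
ETnERV2-int, chr5:60345453-60345572, minus strand: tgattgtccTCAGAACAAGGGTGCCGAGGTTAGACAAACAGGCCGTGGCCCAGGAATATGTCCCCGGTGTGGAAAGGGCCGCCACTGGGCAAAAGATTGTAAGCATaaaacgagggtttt
MMETn-int, chr1:44882501-44882620, minus strand: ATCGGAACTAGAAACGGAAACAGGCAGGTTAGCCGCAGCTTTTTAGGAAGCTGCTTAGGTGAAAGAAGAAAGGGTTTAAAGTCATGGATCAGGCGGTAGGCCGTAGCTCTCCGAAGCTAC
IAPEY3-int, chr3:22150292-22150411, plus strand: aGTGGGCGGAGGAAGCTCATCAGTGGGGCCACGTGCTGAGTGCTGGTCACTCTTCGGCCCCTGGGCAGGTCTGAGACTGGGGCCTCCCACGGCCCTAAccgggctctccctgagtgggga
MTC-int, chr17:39979937-39980041, plus strand: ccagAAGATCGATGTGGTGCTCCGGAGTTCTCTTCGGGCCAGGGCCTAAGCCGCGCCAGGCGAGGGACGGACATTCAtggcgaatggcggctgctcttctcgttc
The MMVL30-int locus held 1025 placed read pairs, and the next, ETnERV2-int on chromosome 5, held 79. The MMVL30-int stretch lies inside AC027184.1, a misc_RNA gene of 319 nt on the same strand. That gene shares a run of 37 nt with one of the 18 genes that GENCODE names RNaseP_nuc, the RNA of nuclear ribonuclease P. The IAPEY3-int stretch (48 placed read pairs) overlaps an RNaseP_nuc gene itself. The MTC-int locus (75 placed read pairs, 66 of them in ES-1) lies between 39979932 and 39985783 of chromosome 17, where ES indirect names 610127 ends Rn45s, the ribosomal precursor. No end of ES-1, ES-2 or MEF has the name Rn45s, and this MTC-int locus had no placed read pair in ES indirect. The ETnERV2-int and MMETn-int places overlap no GENCODE gene.

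Among non-ribosomal ends, the share of LTR ends in MEF lay close to or within the range of ES-1 and ES-2. That of ES indirect lay above it. Over all ends there were 21049 LTR ends per 1000000 non-ribosomal ends for ES-1, then 43440 for ES-2, with 51778 in ES indirect and 45334 in MEF. The MEF value was 1.55 times that of ES merged, while ES-2 was 2.06 times ES-1. MEF thus lay close to ES-2, and the difference was within the spread between the ES assays. That spread includes their difference in ribosomal depletion, and MEF shared the GeneRead kit with ES-2. The MEF to ES merged ratio also depends on the denominator: with ribosomal ends in it, MEF was 2.56 times ES merged. Read pairs with an LTR end were 1.71% of all distinct read pairs in ES-1, 3.90% in ES-2 and 6.44% in MEF. Over placed ends the levels were 6841 (95% Wilson interval 6698 to 6986) in ES-1 and 10351 (10003 to 10711) in ES-2, with 51452 (51075 to 51831) in ES indirect and 8191 (7431 to 9028) in MEF. MEF lay between ES-1 and ES-2 on this scale, but its 2 flow cells gave 7004 and 17013, a wider gap than that between the ES assays. ES indirect was 6.82 times ES merged over placed ends and 1.77 times over all ends. Beside this, 68.1% of placed mRNA ends in ES indirect lay in introns in sense, against 24.2% in ES-1 and 21.0% in ES-2. The part of crosslinker, shearing and precursor RNA in the difference was not tested. Intervals cover counting error only.

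**Figure D1:**
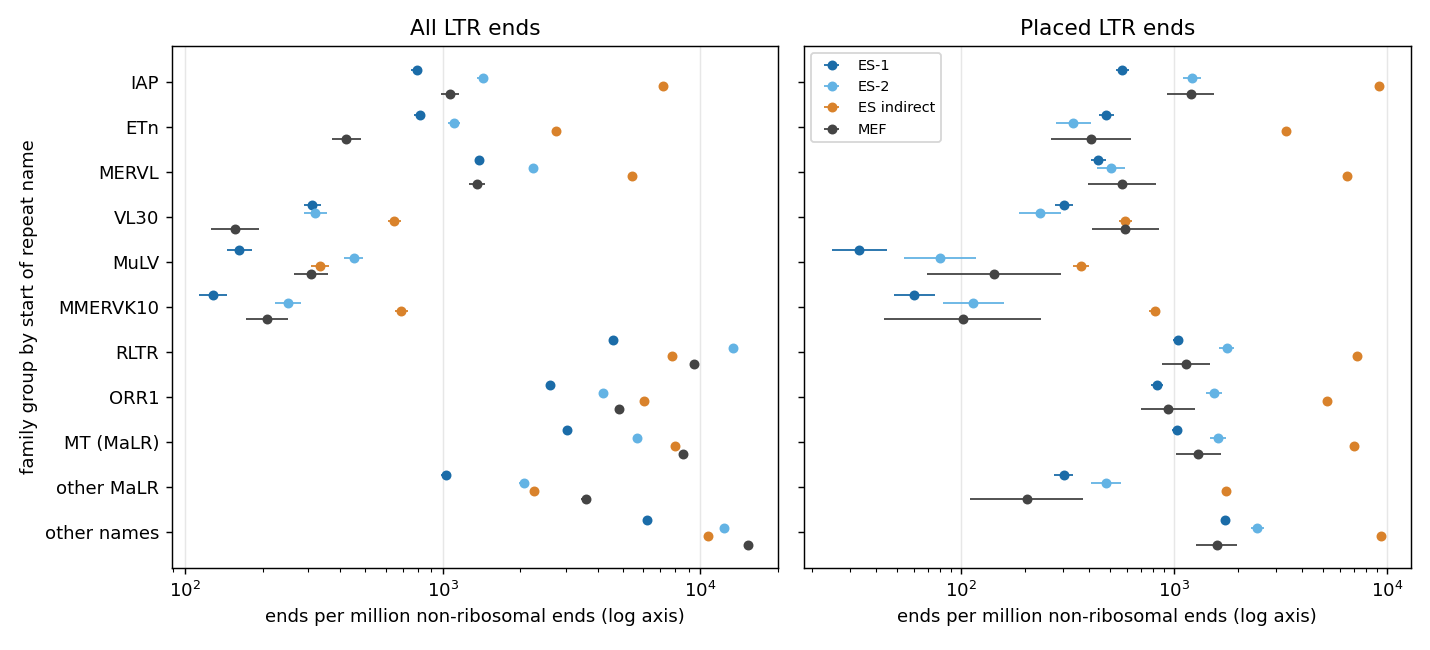
LTR ends of each family group per 1000000 non-ribosomal ends (log axis) in 4 libraries, over all LTR ends (left) and placed ends (right); bars are 95% Wilson intervals. Over placed ends the ES indirect point stands to the right of ES-1 and ES-2 in each group, and for IAP the MEF point lies between ES-1 and ES-2.

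By family group, the young families IAP and ETn lay between ES-1 and ES-2 in MEF once ends were placed, and MERVL lay within its counting error of both. IAP had 573 placed ends per 1000000 in ES-1, 1215 for ES-2 and 1202 in MEF. ETn had 481, 337 and 408. MERVL had 442, 506 and 571, with a MEF interval of 395 to 824 that covers both ES values. Over all ends MERVL had 1380, 2243 and 1354 (1260 to 1455), so its MEF point turned from below both ES assays to above both. Over all ends, ETn was lower in MEF (423 per 1000000) than in ES-1 (816) and ES-2 (1107), but the MEF to ES merged ratio of 0.459 was 0.211 over RNA1 ends alone and 1.25 over RNA2 ends alone, which turns its direction. The name MMETn-int stands outside this group by its prefix, and with it the ratio was 0.367. MMETn-int had 570 placed ends in ES-1, 94 in ES-2 and 15 in MEF, beside 605, 106 and 20 of the ETn group. Other values of the ETn group leave it out. IAP reached 9159 placed ends per 1000000 in ES indirect, MERVL 6465 and ETn 3361, which were 13.1, 14.2 and 7.43 times ES merged.

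With the filter VL30 went from below both ES assays to above both in MEF, while other MaLR names and the ungrouped LTR names went from above both to a MEF value below both, with an interval that covers the ES-1 value. The ungrouped names had 6199, 12314 and 15348 ends per 1000000 in ES-1, ES-2 and MEF over all ends, and 1729, 2463 and 1589 (1274 to 1983) over placed ends. Over all ends VL30 had 312 per 1000000 for ES-1, 320 in ES-2 and 156 for MEF, and over placed ends 305, 235 and 591. Of its placed ends, 95.6% in ES-1, 79.7% for ES-2, 76.4% in ES indirect and 65.5% for MEF lay in AC027184.1 or an RNaseP_nuc gene. Outside these genes 17, 15, 183 and 10 placed VL30 ends remained, or 13.5, 47.7, 140 and 204 (111 to 375) per 1000000. The same genes held 18 of the 59 placed IAP ends of MEF, and 835 (616 to 1133) IAP ends per 1000000 remained there against 555 in ES-1 and 1209 in ES-2. Over all 4 libraries, 1038 ends named MMVL30-int, 48 named IAPEY3-int and 22 named IAPEy-int lay in these genes.

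ORR1, MT and other MaLR names lay above both ES assays in MEF only while unplaced ends were counted. Over all ends the MT names were at 3045 per 1000000 in ES-1, 5662 for ES-2 and 8584 in MEF, and other MaLR names at 1026, 2065 and 3585, so MEF lay above both ES assays. Over placed ends MT names were at 1030, 1604 and 1304, between the ES assays, and other MaLR names at 304, 480 and 204 (111 to 375), where the MEF interval covers the ES-1 value. ORR1 gave 834, 1546 and 937 placed ends per 1000000, and the remaining RLTR names 1049, 1769 and 1141. MMERVK10 had 60.4, 115 and 101.9, and MuLV 33.4, 79.5 and 143 (69.1 to 294), on 5 and 7 placed ends in MEF.

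Repeat names differed within each library in how many of their ends could be placed, and so did the libraries within each name. IAPEz-int, the internal part of a young IAP class, had the most read pairs (7318, of them 6509 in ES indirect). Its ends were placed in 80.7% for ES-1, 57.7% for ES-2, 94.7% in ES indirect and 27.4% for MEF. MERVL-int reached 79.1%, 52.6%, 95.1% and 35.8%, MMETn-int 61.6%, 19.2%, 90.3% and 34.1%, and ETnERV2-int 47.7%, 10.55%, 89.6% and 11.2%. RLTR6_Mm was placed in 1.48%, 0.197%, 59.8% and 0%, and over the 4 libraries 94.3% of its ends were under 25 nt. MurERV4-int was placed in 19.4%, 9.09%, 6.12% and 0%, and held a linker piece in 66.0%, 81.8%, 92.5% and 99.4%. ORR1E, MTEa, MTE2b, MTEb and MLT1B held linker pieces in 18.1% to 44.7% of their ends for ES-1, 31.8% to 54.0% in ES-2, 27.2% to 48.3% for ES indirect and 47.7% to 83.5% in MEF. MT2A, the LTR of an older MERVL relative, held a ribosomal run in 51.4% over the 4 libraries.

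**Figure D2:**
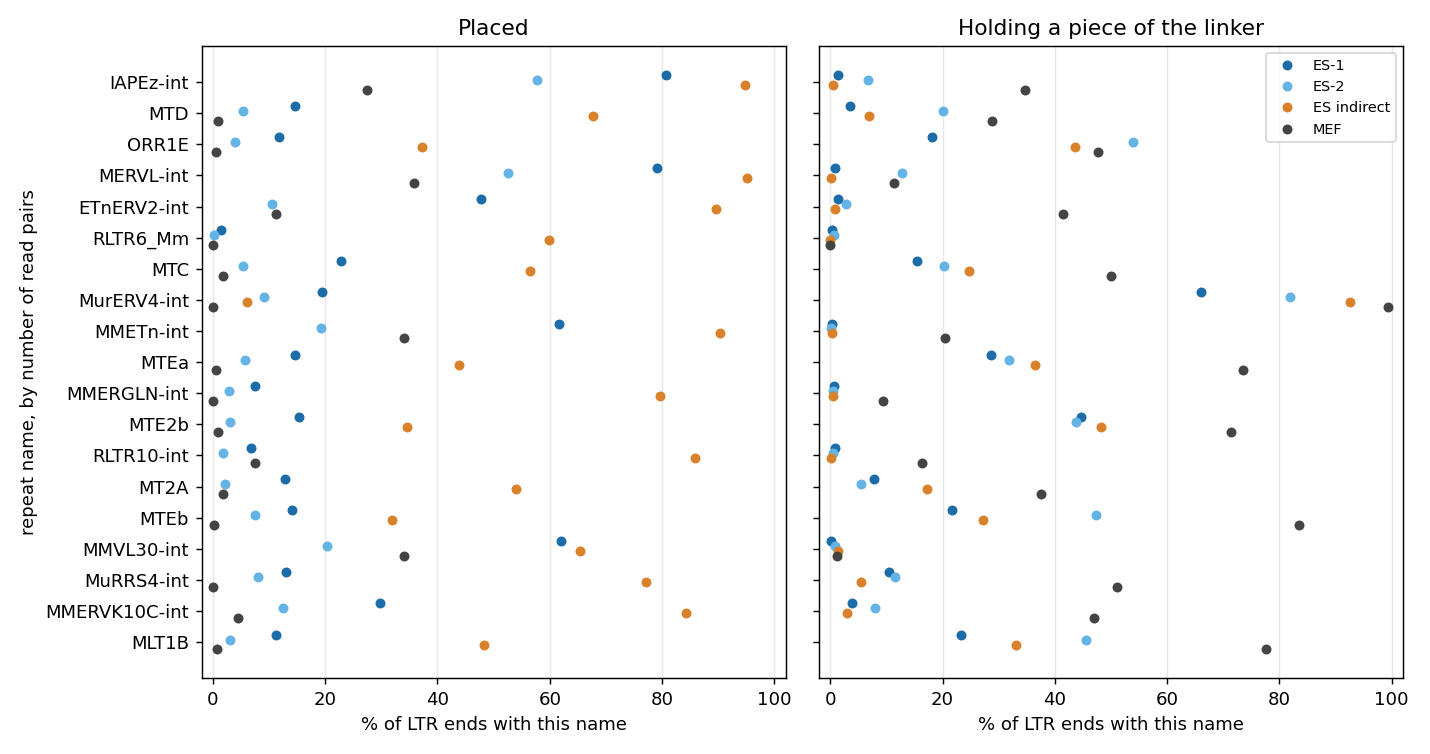
Percent of LTR ends that were placed (left) and percent that held a piece of the linker (right) for 19 repeat names, 1 point for each of 4 libraries. IAPEz-int is placed in 27.4% of ends in MEF and 94.7% in ES indirect, and MurERV4-int holds linker pieces in 66.0% to 99.4% of its ends.

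The order of names changed accordingly. By all read pairs the first name was MTD in ES-1 (1661), RLTR6_Mm in ES-2 (2536), IAPEz-int in ES indirect (6509) and MurERV4-int in MEF (2074). By placed ends it was MMETn-int in ES-1 (570), IAPEz-int in ES-2 (206) and in ES indirect (9138), and MMVL30-int in MEF (29). Of the 29 MMVL30-int ends of MEF, 19 lay in AC027184.1 or an RNaseP_nuc gene, and the next name there was IAPEz-int with 26. MMETn-int, a short ETn form without coding ability, had 453 placed ends per 1000000 for ES-1, then 299 for ES-2, with 1885 in ES indirect and 306 (185 to 504) in MEF. IAPEz-int had 360, 655, 6966 and 530 (362 to 776). MERVL-int had 244, 223, 4854 and 387 (248 to 605), so the MEF interval just cleared the ES-1 point and overlapped its interval (218 to 273). ETnERV2-int had 299, 172, 2481 and 346 (216 to 555). Among the names described, RLTR6_Mm, MurERV4-int, MMERGLN-int and MuRRS4-int had 0 placed ends in MEF, where a count of 0 allows up to 78.3 per 1000000 by the Wilson interval. Placed ends were spread over 430 names, 108 of them seen in each library.

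The partner types of LTR RNA also depended on placement. Over all LTR read pairs the other end was ribosomal in 57.1% in ES-1 and 65.1% in ES-2, with 20.4% in ES indirect and 26.8% in MEF. The libraries as a whole were rich in ribosomal ends. With 2 ends each, 2310134 distinct read pairs of ES-1 held 1986442 non-ribosomal ends. These numbers were 1241787 and 1140611 for ES-2, 1655476 and 1828030 for ES indirect, and 373978 and 543655 for MEF. Whether the LTR shares depart from this content was not tested. Where both ends were placed, ribosomal partners made up 14.8%, 7.23%, 6.45% and 6.86%, and the leading partner was another LTR end, in 36.2%, 45.6%, 46.1% and 47.1%. Unannotated sequence came to 17.05%, 18.6%, 13.9% and 17.6%, and mRNA to 9.45%, 9.97%, 21.2% and 14.2%. The lead of LTR partners in ES-1 rested on fragments that lie close together. Over placed pairs more than 2000 bp apart, ribosomal partners led in ES-1 with 29.6%, before LTR with 20.8%, mRNA with 18.8%, small nucleolar RNAs (snoRNAs) with 17.6% and unannotated sequence with 6.04%. In the other libraries LTR partners still led such pairs, with 30.3% for ES-2, 42.8% in ES indirect and 36.6% for MEF, and mRNA was second with 25.6%, 35.1% and 27.7%. SnoRNAs, which guide modification of ribosomal RNA, were partners in 6.02% of such pairs for ES-2 and 0.346% for ES indirect, so the ES assays themselves differed. Over placed pairs at any distance their shares were 8.81% for ES-1, then 2.38% for ES-2, with 0.208% in ES indirect. For comparison, also at any distance, placed mRNA ends had a ribosomal partner in 49.7% of cases in ES-1 and 50.1% in ES-2. They had a snoRNA partner in 23.2% and 14.3%. Placed LINE ends were nearer to LTR ends, with a ribosomal partner in 10.98% and 6.65% and another LINE end in 49.0% and 54.3%. These are shares of counts with no test.

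**Figure D3:**
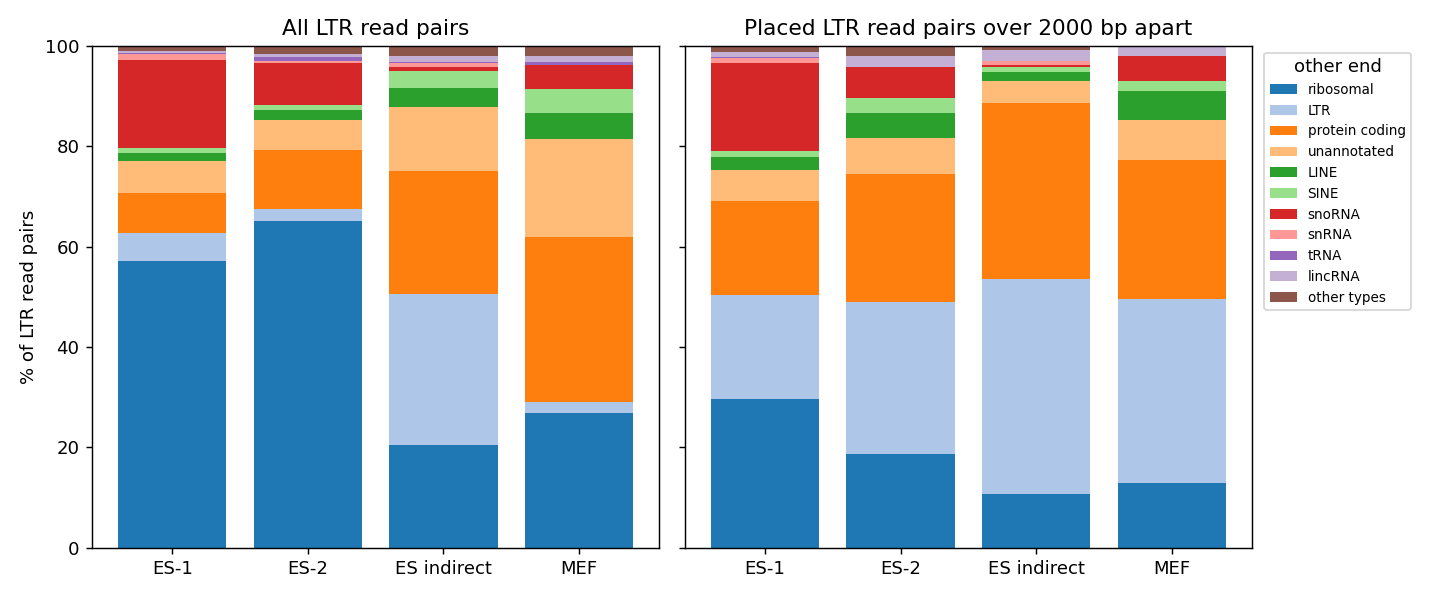
Type of the other end as percent of LTR read pairs, over all of them (left) and over placed pairs more than 2000 bp apart (right). The ribosomal share falls from 57.1% to 29.6% in ES-1 and from 65.1% to 18.7% in ES-2.

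Partner shares differed between family groups and, for several groups, also between the ES assays. Placed IAP pairs had an LTR partner in 47.6% of 431 for ES-1 and 56.4% of 220 for ES-2, an mRNA partner in 20.2% and 29.1%, and a ribosomal one in 15.1% and 1.82%. MERVL pairs (341 and 89) had an LTR partner in 36.7% and 49.4%, mRNA in 17.01% and 19.1%, and ribosomal RNA in 16.1% and 5.62%. ETn pairs (387 and 54) had an LTR partner in 22.2% and 37.0% and a ribosomal one in 30.0% and 33.3%. VL30 pairs (252 and 39), mostly from the misc_RNA places, had a ribosomal partner in 49.2% and 33.3%, an LTR partner in 2.78% and 7.69%, and a snoRNA in 19.05% and 5.13%. In both assays the LTR share was lowest for VL30 among these 4 groups. In ES indirect the LTR partner reached 53.9% for IAP, 63.1% for ETn and 45.3% for MERVL, and 10.8% for VL30.

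Many placed pairs joined fragments that lie side by side. Both fragments were within 2000 bp on 1 chromosome in 50% of 5526 placed LTR read pairs in ES-1, 61.4% of 1936 for ES-2, 40.0% of 41391 in ES indirect and 50.5% of 204 for MEF. Of the close LTR pairs, 99.4% for ES-1, then 99.6% for ES-2, with 96.4% in ES indirect and 75.7% in MEF lay on 1 strand with RNA1 upstream of RNA2. Their median gap was 80, 77, 82 and 146 bp. Close pairs were commoner in the old families than in IAP, ETn and MERVL. In ES-1 the share was 87.4% for other MaLR names, 67.3% for ORR1 and 66.4% for MT names, against 33.4% for MERVL, 9.98% for IAP and 8.79% for ETn. In ES-2 it was 96.2%, 72.3% and 72.2% against 43.8%, 20.9% and 33.3%, and in ES indirect 88.7%, 67.6% and 55.8% against 11.7%, 5.39% and 16.4%. MuLV, on few pairs, was at 11 of 27 in ES-1 and 11 of 12 in ES-2. In 99.6% of close pairs of ES-1 and 99.7% in ES-2, RNA1 was 90 nt and RNA2 100 nt long, the commonest lengths of placed ends over the 4 libraries, and in ES indirect this held for 95.3%. In MEF it held for 0 of 103 close pairs.

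LTR to LTR pairs with stated places further apart were mostly within a family. Among placed LTR to LTR pairs over 2000 bp apart, both ends had the same repeat name in 74.7% of 574 in ES-1 and 75.7% of 226 in ES-2, with 84.1% of 10622 in ES indirect and 62.2% of 37 in MEF. By family group in place of name the shares were 86.8%, 92.0%, 92.3% and 78.4%. MMETn-int is outside the ETn group by its prefix, so its pairs with ETn names count here as between groups. With ETnERV2-int these were 26 in ES-1, 322 in ES indirect and 3 in MEF, and the group shares are low by such pairs. Over all pairs, with unplaced ends included, the same-name shares were 67.2%, 41.3%, 80.6% and 8.84%. IAPEz-int gave 120 of the 429 same-name placed pairs of ES-1, 59 of 171 of ES-2 and 2837 of 8932 of ES indirect, and MERVL-int 50, 14 and 1783. The stated places lay on different chromosomes in 85.3% of these pairs for ES-1, 87.1% in ES-2 and 85.1% for ES indirect.

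The sequences of many pairs with stated places far apart also lie together in the genome. In the examples, RNA1 is in lower case, and capitals in RNA2 mark the bases that match a second place beside RNA1, in the same orientation. The IAPEz-int pair of ES-1 was listed at chrX:112056704-112056793 and chr7:18446829-18446928, and RNA2 also lies at chrX:112056833-112056932, with 1 mismatch and a gap of 39 bp.
IAPEz-int RNA1: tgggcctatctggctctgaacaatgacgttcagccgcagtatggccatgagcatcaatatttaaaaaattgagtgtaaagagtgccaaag
IAPEz-int RNA2: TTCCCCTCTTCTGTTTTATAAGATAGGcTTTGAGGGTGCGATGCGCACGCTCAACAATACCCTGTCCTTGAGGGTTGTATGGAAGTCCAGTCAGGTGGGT
The ETnERV2-int pair of ES indirect was listed at chr11:49262233-49262322 and, for RNA2, in an intron of Rb1 at chr14:73590809-73590908. RNA2 also lies at chr11:49262323-49262422 with 1 mismatch, at the next base after RNA1.
ETnERV2-int RNA1: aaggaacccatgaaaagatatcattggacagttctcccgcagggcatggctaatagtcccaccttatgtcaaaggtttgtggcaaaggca
Rb1 intron RNA2: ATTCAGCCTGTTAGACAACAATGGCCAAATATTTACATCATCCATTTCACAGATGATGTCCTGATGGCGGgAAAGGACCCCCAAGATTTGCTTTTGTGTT

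This was the rule among same-name pairs. Each fragment was searched within 2000 bp of the other's stated place, with up to 15% mismatches. In the same orientation a second place was found for 95.8% (93.5 to 97.3) of same-name pairs in ES-1, 97.7% (94.1 to 99.1) for ES-2 and 98.2% (97.9 to 98.5) in ES indirect. In the opposite orientation alone it was found for 0 of 429, 0 of 171 and 1 of 8932 pairs. With at most 5% mismatches the shares were 91.1%, 93.0% and 95.6%. RNA1 preceded RNA2 in 92.3%, 97.7% and 92.7% of same-name pairs, and the median gap between them there was 42.5, 62 and 14 bp. In MEF, 9 of 23 same-name pairs had a second place in the same orientation and 14 in the opposite one. One RNA and 2 RNAs of nearly equal copies cannot be told apart from the sequence of such a pair alone.

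The share with a second place differed by partner type. This outcome depends on which sequences lie beside LTR copies in the genome, because the search covered only 2000 bp around the other fragment. A share near 0 for ribosomal or snoRNA partners therefore does not show that such pairs join 2 RNAs. The share was 69.2% for pairs of an LTR end with an mRNA intron for ES-1, 65.3% in ES-2 and 81.3% for ES indirect. Between different LTR names it was 71.7%, 63.6% and 86.2%. For mRNA regions other than introns it was 11.3% of 71, 4.17% of 24 and 23.8% of 686 pairs. With a ribosomal partner it was 2 of 818, 0 of 140 and 0 of 2666, and with a snoRNA partner 0 of 487, 0 of 45 and 0 of 86. Read length moved with this: full lengths of 90 and 100 nt made up 97.7%, 99.0% and 90.6% of far pairs with a second place and 29.0%, 43.1% and 21.4% of those without. In MEF none of the 45 and 31 such pairs had these lengths.

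**Figure D4:**
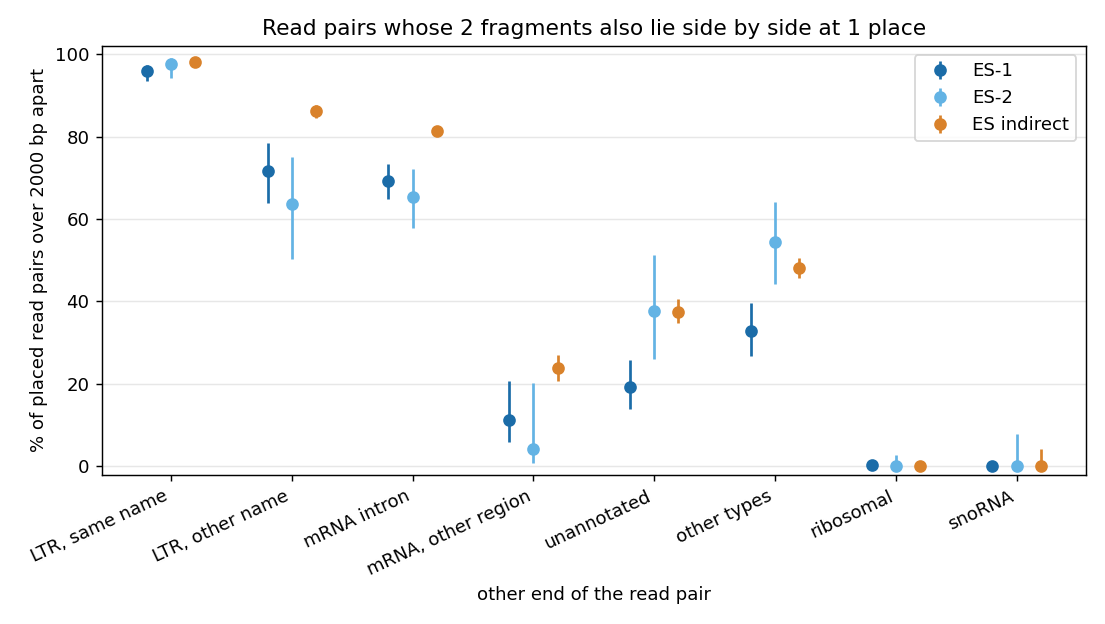
Percent of placed LTR read pairs over 2000 bp apart whose fragments also lie within 2000 bp of each other in the same orientation, by type of the other end, with 95% Wilson intervals. Same-name pairs sit at 95.8% to 98.2% in 3 ES libraries, and pairs with ribosomal or snoRNA ends sit at or near 0.

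Together, close pairs and pairs with a second place took up most placed LTR read pairs. Pairs that were neither close nor had a second place in either orientation made up 1826 of 5526 in ES-1 (33.0%), 364 of 1936 in ES-2 (18.8%), 6670 of 41391 in ES indirect (16.1%) and 31 of 204 in MEF (15.2%). A second place in the opposite orientation alone was found for 25 pairs of MEF (12.3%), against 5, 1 and 29 pairs of the ES libraries. In ES-1 the pairs with no second place were 816 with ribosomal RNA, 487 with snoRNAs, 138 with mRNA introns, 135 with unannotated sequence, 129 with other types, 62 with other mRNA regions, 41 with another LTR name and 18 with the same name. In ES-2 ribosomal partners numbered 140, introns 58, snoRNAs 45, other types 41 and unannotated sequence 33. In ES indirect there were 2665 ribosomal, 1494 intronic, 854 other-type, 665 unannotated, 522 other mRNA, 225 other LTR and 159 same-name partners, and 86 snoRNAs. The ribosomal and snoRNA counts of this class carry the limit of the search given above. The ribosomal pairs of ES-1 were led by MMVL30-int with the large subunit RNA (76), MMETn-int with the large (67) and small (57) subunit RNA and ETnERV2-int with the large subunit RNA (47). Of the placed VL30 ends of ES-1, 95.6% lay in AC027184.1 or an RNaseP_nuc gene, so the first of these is mostly a misc_RNA named LTR. In ES indirect IAPEz-int led, with 142 pairs to the precursor Rn45s and 132 to the large subunit RNA.

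**Figure D5:**
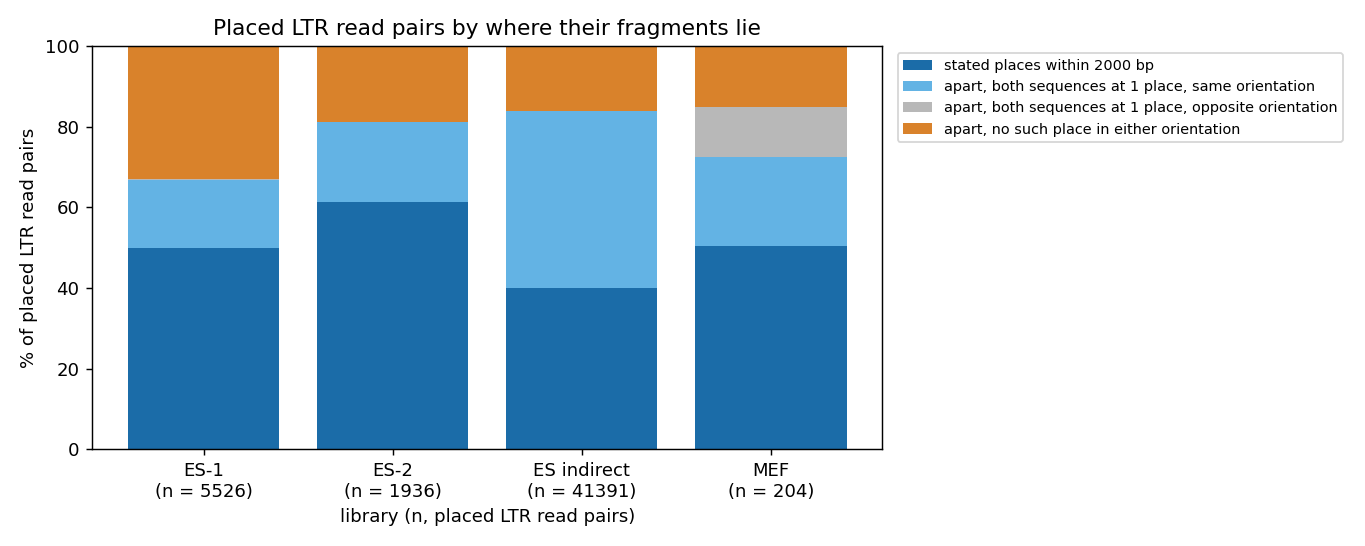
Placed LTR read pairs of each library split into pairs with stated places within 2000 bp, pairs further apart whose sequences also lie at 1 place in the same or only in the opposite orientation, and pairs with no such place, in percent. The last class ranges from 15.2% in MEF to 33.0% in ES-1, and the opposite orientation is visible in MEF with 12.3%.

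The mRNA ends joined to LTR RNA were mainly intronic once placed. Over all pairs, introns made up 52.5% of mRNA ends in ES-1, 53.9% for ES-2, 86.3% in ES indirect and 81.9% for MEF. Over placed pairs they made up 85.8% (82.6 to 88.6), 86.5% (81.0 to 90.6), 91.7% (91.2 to 92.3) and 82.8% (65.5 to 92.4, 29 pairs). Placed mRNA ends with a partner neither LTR nor ribosomal were intronic in 43.0%, 57.8%, 78.7% and 59.4%, below the LTR value in each library. Over all ends that background was 54.3%, 58.7%, 78.5% and 80.6%, above the LTR value in ES-1 and ES-2, so there the order turned with the filter. The background had no distance limit. Placed LTR to mRNA pairs lay over 2000 bp apart in 519 of 522, 191 of 193, 8728 of 8766 and 28 of 29 cases. Placed mRNA to mRNA pairs, which are part of the background, lay within 2000 bp in 84.15%, 87.13%, 86.31% and 91.47%. Whether the difference in introns holds at equal distance was not tested. Exons gave 8.24%, 9.85%, 3.31% and 10.3% of the mRNA ends in placed LTR pairs. In the ES libraries most of these intronic pairs had the second place described above.

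Counted over all read pairs, the genes with most LTR contacts in ES-1 and ES-2 rested mostly on unplaced fragments. Dnahc7b, a dynein heavy chain gene, had 153 LTR contacts in ES-1 and 66 in ES-2, none of them placed, and 97.1% of its fragments held a ribosomal run. Npepps, an aminopeptidase gene, had 4 and 49, again with 0 placed and 96.5% with such a run. Dcun1d4 (7 and 111), Suv420h2, a histone methyltransferase gene (15 and 103), 2310067B10Rik (2 and 34) and Nufip2 (1 and 32) also had 0 placed pairs in both, and their fragments had medians of 16 to 26 nt. Fry (7 and 76) had 0 placed pairs as well. Il1rapl1 (12 and 30) had 3 placed pairs, in ES-1, and Gm20388 (7 and 29) had none there but 76 in ES indirect. In MEF the leading genes were Agap1 (438), Fhit (375), Sdk2 (108), Rarb (65) and Rfc1 (58), with no placed pair there and linker pieces in 92.0% to 100% of their fragments over 4 libraries.

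Rpl3, a ribosomal protein gene whose introns host snoRNAs, had the most placed pairs among these genes in ES-1 and ES-2, though most of its fragments were unplaced too. It had 67 LTR contacts in ES-1 and 30 in ES-2, of which 8 and 2 were placed, all in introns. RLTR4_MM-int was its commonest partner by placed pairs, with 5 in ES-1. None of these 8 and 2 placed pairs had a second place. The 5 RLTR4_MM-int pairs were the most of any intron pair without a second place in ES-1.

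Ranked by placed far pairs in ES merged, an order chosen after the values were seen, other genes came beside Rpl3 (8 and 2). Acn9 had 12 in ES-1, 0 for ES-2 and 26 in ES indirect, Adarb2, of the RNA-editing enzyme family, 12, 0 and 43, and Slc4a4, a bicarbonate transporter gene, 10, 0 and 47. Wiz (10, 0 and 33) and Sntb1 (9, 0 and 58) followed. Unlike Rpl3 with none, these 5 genes had a second place for all their pairs in ES-1, and in ES indirect 25 of 26, 43 of 43, 46 of 47, 32 of 33 and 58 of 58 had one. In ES indirect Rb1, the retinoblastoma gene, led with 81 pairs, 62 of them with ETnERV2-int, and 80 of 81 had a second place. Tiam1, joined mostly to IAPEz-int, had 55 of 61 with one, Camk1d 63 of 72 and Tubgcp2 47 of 51. In all, 394 genes were joined by a far placed pair of ES-1 and 175 by one of ES-2.

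Some gene pairs had several read pairs without a second place. In ES indirect MERVL-int was joined to introns of Fto, an RNA demethylase gene, by 15 such pairs, MMERGLN-int to Casp9, a caspase gene, by 9, and MERVL-int to Arl15 by 7. RLTRETN_Mm was joined to Taf8 outside introns by 9, and ORR1A0 to Tet1 by 5. In ES-1 Rangap1 introns were joined to ETnERV2-int by 3, and Igf2bp1 fragments outside introns to IAPEz-int by 3. In ES-2 fragments of Gm7535 outside introns were joined to MMETn-int by 5 and to ETnERV2-int by 2.

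Pairs of RNA names were called by a one-sided Fisher's exact test per pair at a Benjamini-Hochberg adjusted p under 0.05 and at least 3 read pairs, after the study's own test. Read pairs are its unit, so a call describes a library and carries no replicate error. Expected numbers below are the product of the read pair totals of both names over all read pairs, without regard to side. They can exceed what random joining of ends would give. Of 18007 pairs with an LTR name in ES merged, 164 (0.911%) were called, beside 0.895% of all pairs, so LTR names stood at the background. In ES-1 1.55% were called beside a background of 1.09%, and in ES-2 0.551% beside 0.719%. In MEF it was 0.717% beside 0.842%. In ES indirect 1026 of 16105 (6.37%) were called beside 2.54%. Of the 136 calls in ES-1 and 58 in ES-2, 11 were shared (8.09% and 19.0%), beside 228 of all 1478 and 782 calls (15.4% and 29.2%). Over placed pairs the numbers were 44 of 1347 (3.27%, background 1.34%) in ES merged, 858 of 5498 (15.6%, background 5.38%) in ES indirect and 1 of 54 (1.85%, background 1.15%) in MEF. Of the 858 calls in ES indirect, 729 joined an mRNA, and most placed read pairs of an LTR end with an intron had a second place there (81.3%, above).

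Among called pairs in ES merged, the first was MERVL_2A-int with Snora16a, with 59 read pairs against 4.33 expected (Fisher's exact test, adjusted p = 3.52e-43). It had 54 from ES-1, 5 from ES-2, and none was placed. The commonest fragment at the leading locus of MERVL_2A-int is the 19-nt one printed above. Whether these read pairs hold it was not tested. MYSERV16_I-int with Snora81 (13 and 16 read pairs), MLT1D with SNORD60 (14 and 5) and MT2A with SNORA51 (3 and 18) were called in both assays, also with 0 placed pairs. ETnERV2-int with MMETn-int, 2 ETn names, had 31 read pairs for ES-1, then 0 for ES-2, with 366 in ES indirect and 4 in MEF, of which 26 in ES merged, 322 in ES indirect and 3 in MEF were placed. It was the 1 LTR pair called over placed pairs in MEF. MERVL-int with MERVL_2A-int (77 placed in ES indirect) and IAPEz-int with IAPLTR1_Mm (7 placed in ES merged and 69 in ES indirect) join an internal part to a related name.

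Of the 10 called pairs with most placed read pairs in ES merged, 3 joined a snoRNA. MMERGLN-int, the internal part of a gammaretrovirus-like family, was joined to Snora41 by 15 placed pairs, against 0.0736 expected (Fisher's exact test over placed pairs, adjusted p = 2.22e-28). MMETn-int was joined to SNORA18 by 10 placed pairs (2.70 expected, Fisher's exact test, adjusted p = 0.00647) and MERVL-int to SNORA3 by 7 (2.29 expected, Fisher's exact test, adjusted p = 0.0456). None of these 3 was called in ES-2, where they had 0, 1 and 0 read pairs, or seen in ES indirect. No snoRNA pair had a second place within 2000 bp of the other fragment in ES-1, ES-2 or ES indirect. That search covered no other part of the genome, so it does not bear on these 3 calls. Complementary runs of at least 12 nt between the fragments were found in 0 of 487 snoRNA pairs in ES-1 and in 0 of 429 same-name pairs. In MEF 14 of 23 same-name pairs had such a run, and the median longest run over the 23 was 33 nt. A second place in the opposite orientation was found for the same number of pairs. The strand of RNA1 was less sure in MEF, where 64.1% of placed exonic mRNA ends at RNA1 lay in sense. Whether these runs belong to 2 RNAs was not tested.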

How the data were processed

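Of 6 libraries, 4 were used, and the brain libraries were not analysed here. The deposited files list, per the authors' pipeline, 1 mapped read pair a line with the mm9 position, strand, type, name, region and sequence of RNA1 and RNA2. They hold no measured value, only positions and labels from which read pairs were counted (other columns were left as deposited). TopHat2 2.1.1 is named in the submitters' processing notes, without its role. The authors removed duplicates by mapped place and random barcode, and equal coordinates were collapsed here in addition. The listed strand of RNA2 was taken as the opposite of its RNA's. Sequences were set against NCBIM37 and GENCODE M1. Shares carry 95% Wilson intervals. Pair calls used SciPy 1.17.1, with pandas 2.3.3 and Python 3.11.15, and were tested on simulated data. Genes, loci and names were named by rank of read pairs: the 15 first names and the first of each of 11 family groups, 10 genes in ES merged and 5 each in ES indirect and MEF, 8 loci, and 10 or 5 called pairs. The members, lists and rules were chosen with earlier results of these data known. Placed ends and the second-place search were added after seeing the data.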

Additional observations from a re-analysis of the deposited data

How the results depend on the processing

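The LTR level of MEF over ES merged was 1.55, between 1.04 and 2.15 without an ES replicate, 2.56 with ribosomal ends in the denominator and 1.09 over placed ends. Leaving out an ES replicate gave 0.747 to 1.35 for IAP (main 1.04), 0.382 to 0.519 for ETn (0.459), 0.604 to 0.981 for MERVL (0.799), 57.1% to 65.1% ribosomal partners (61.5%), 41.3% to 67.2% same-name pairs (56.9%), 52.5% to 53.9% introns (53.4%) and 58 to 136 called pairs (164); without ES-1 the 58 calls are under the main count by over 1.5 times. With both fragments of at least 20 nt, ETn was 0.320, MERVL 1.27 and introns 54.5%. At up to 15% mismatches IAP was 0.594, ETn 0.332 and introns 54.9%. Flow cell 1 of MEF gave 0.747 for IAP and 0.338 for ETn, and flow cell 2 gave 1.52 for IAP, 0.655 for ETn and 1.13 for MERVL. Placed ends, chosen after seeing the data, gave 1.71 for IAP, 0.901 for ETn, 12.8% ribosomal partners, 86.0% introns and 44 calls. They turned MERVL (0.799 to 1.25), VL30 (0.496 to 2.03), ORR1 (1.52 to 0.960) and other MaLR (2.55 to 0.601). Remaining RLTR names (1.21 to 0.956) and ungrouped names (1.82 to 0.847) turned too. Most placed VL30 ends lay in AC027184.1 or an RNaseP_nuc gene, as did 18 of the 59 placed IAP ends of MEF. RNA2 ends alone gave 1.82 for IAP and reversed ETn (1.25), and RNA1 ends alone gave 0.625 for IAP and 0.211 for ETn. As a share of LTR ends IAP was 0.671, ETn 0.296, MERVL 0.515 and ORR1 0.980, reversed. Every line counted gave 51.6% introns and 652 calls, minima of 2 and 5 read pairs 418 and 71 calls, and pairs within 2000 bp 75.3% same-name pairs. The cause was not tested. IAP was at 0.976 with starts rounded before collapsing, so its ratio has no settled direction. For the 8 groups other than IAP, ETn and MERVL, 88 alternative values moved by less than the ES-1 to ES-2 spread and 20 by more. Another 4 moved by more and reversed: VL30 and other MaLR over placed ends, and ORR1 over placed ends and as a share. Of the 88 and 20, 12 and 1 lay on the other side of 1. The spread was the standard deviation of the MEF ratios to ES-1 and to ES-2, and these ratios are among the alternatives. It ran from 0.00873 for VL30 to 1.24 for other MaLR, so the counts do not judge all groups alike. MuLV (1.15) ranged from 0.621 to 3.84, MMERVK10 (1.199) from 0.772 to 2.78 and remaining RLTR names (1.21) from 0.705 to 2.15. Ungrouped names (1.82) were at 0.847 over placed ends. Apart from placed ends, VL30 (0.496) ranged from 0.311 to 0.931. No paired analysis was possible because ES indirect and MEF are 1 library each. With 402 placed LTR ends, MEF cannot show differences inside its intervals.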
